A study of Mus musculus with 15 samples.

Results

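The transcriptome of the Nrl-/- mouse retina was described by itself, without a contrast, from the 5 arrays whose titles name Nrl alone, of 15 arrays in the series. Each array carried the RNA of both retinas of 1 mouse, taken at postnatal day 30 from animals on a C57BL/6 background that lack Nrl in every cell. The other 10 arrays came from Cnga3-/-/Nrl-/- and Cngb3-/-/Nrl-/- mice of the same age, 5 each, and served here only to say whether a probe was detected elsewhere. Every array of the series therefore lacked Nrl, and no retina with rods was analysed here, so that no value below can be set against the level in a normal retina. Whole retina was used, and in such bulk RNA fewer cells of a type and less RNA per cell cannot be told apart.

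Nrl is the transcription factor that commits photoreceptor precursors to the rod fate. Without it, precursors that would have become rods develop into cells with the features of cones that carry short-wavelength opsin. Rods and cones detect light through the same chain of steps: an opsin activates transducin, transducin activates the phosphodiesterase PDE6, the fall in cGMP closes cyclic nucleotide-gated channels, and arrestin, recoverin and guanylate cyclase restore the dark state. Most of these steps are served by a rod gene and a separate cone gene, and other components are common to both cell types. The rest of the retina holds bipolar, horizontal, amacrine and ganglion neurons, Mueller glia, vessels and microglia, and it lies against the pigment epithelium.

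Values are log2 quantile-normalized probe intensities, with a median of 7.26 on every array. A probe counted as detected on an array where its detection p, computed by the scanner software against negative control probes, was under 0.01. Of 25697 probes, 9850 (38.3%) were detected on all 5 arrays, 3984 (15.5%) on 1 to 4, and 11863 (46.2%) on none. Probes detected on no array had a median mean log2 value of 7.06, and 95% of them lay at or below 7.18, which marks the background. A gene was represented by its brightest probe and called abundant when that probe was among the brightest 5% of all probes (1284 probes, mean log2 value of at least 10.8). It was called dim when detected on all 5 arrays with a mean below 8.82, the median of such probes. Of 16593 genes with a probe, 6.61% were abundant, 43.7% were detected on all 5 arrays and 41.6% on none, and these shares are the background for each list below. Brightness depends on the probe as well as on the transcript, so the order of genes is a description of probe signal, and no fold between genes is given.

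Upstream sequences of cone genes that mark this retina as cone-like, and of the brightest rod gene, are shown because they carry the core TAATC, bound by the homeodomain factors CRX and OTX2, whose own genes were among the abundant ones. The windows are the 250 bases before the annotated start, from RefSeq on GRCm38.p6, printed 5′ to 3′ on the gene's strand, with TAATC or its reverse complement GATTA in capitals. The Arr3 window lies at chrX:100605247-100605496 (+ strand), Opn1sw at chr6:29380514-29380763 (- strand), Gnat2 at chr3:108092816-108093065 (+ strand) and Sag at chr1:87803430-87803679 (+ strand). The table of windows holds no entry matched to Pde6c.
Arr3: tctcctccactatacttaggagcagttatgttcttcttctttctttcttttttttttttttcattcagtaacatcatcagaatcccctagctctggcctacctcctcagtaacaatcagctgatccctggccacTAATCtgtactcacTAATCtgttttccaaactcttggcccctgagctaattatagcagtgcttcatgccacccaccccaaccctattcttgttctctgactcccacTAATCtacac
Opn1sw: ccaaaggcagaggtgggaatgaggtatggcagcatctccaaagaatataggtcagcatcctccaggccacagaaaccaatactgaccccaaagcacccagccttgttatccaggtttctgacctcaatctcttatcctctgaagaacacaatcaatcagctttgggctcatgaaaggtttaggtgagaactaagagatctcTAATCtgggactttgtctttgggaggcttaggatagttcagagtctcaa
Gnat2: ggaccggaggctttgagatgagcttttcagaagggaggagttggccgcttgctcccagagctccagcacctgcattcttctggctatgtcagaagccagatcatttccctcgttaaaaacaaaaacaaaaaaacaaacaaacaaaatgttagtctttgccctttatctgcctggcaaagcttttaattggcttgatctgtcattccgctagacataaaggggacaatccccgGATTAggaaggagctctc
Sag: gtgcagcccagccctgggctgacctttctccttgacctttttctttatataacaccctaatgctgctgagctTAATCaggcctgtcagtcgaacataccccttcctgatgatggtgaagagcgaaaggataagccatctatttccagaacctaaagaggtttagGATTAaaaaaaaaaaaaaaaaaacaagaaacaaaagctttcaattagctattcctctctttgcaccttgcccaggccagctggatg
The core occurred 3 times in the Arr3 window, 1 time in each of the Opn1sw and Gnat2 windows, and 2 times in that of Sag. Of all 32851 windows in the table, 6519 (19.8%) held at least 1 copy on either strand. Among the lists used below, it was held by 3 of 9 windows of cone genes, 7 of 13 of rod genes and 7 of 11 of genes that both cell types use. It was also held by 10 of 22 windows of photoreceptor transcription factor genes, 4 of 14 of housekeeping genes and 4 of 21 of lens genes. The 3 cone windows that held the core are the ones printed above, so no cone window without it is shown. A match describes letters in a window and is not evidence of a bound site.

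Arr3, Opn1sw, Gnat2 and Pde6c, the markers by which the retina is called cone-like, were checked first. Arr3, cone arrestin, read 12.9, 13.28, 13.25, 12.93 and 13.64 on the log2 scale in replicates 1 to 5, and its other probe had a mean of 13.14. Gnat2, the alpha subunit of cone transducin, read 13.34, 13.37, 12.53, 13.16 and 13.51. Pde6c, the catalytic subunit of the cone phosphodiesterase, read 12.87, 13.24, 11.97, 13.12 and 13.36. All 3 were abundant on average, at ranks 94, 98 and 137 of all probes, and replicate 3 was the lowest array for Gnat2 and Pde6c. Opn1sw, the short-wavelength opsin, read 10.43, 10.08, 10.5, 10.08 and 10.23, which placed its brighter probe at rank 1971, below the abundant range. Its other probe was dim, with a mean of 8.49, and both probes were detected on all 5 arrays. All 4 markers were thus detected on every array, and the Nrl probe, detected on 0 of 5 arrays with values from 6.89 to 7.13, lay at the background. The position of that probe relative to the deletion is not given in the sources.

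Of 11 cone phototransduction genes, 7 were abundant, 10 were detected on all 5 arrays and 1 on none, with a list median of 13.18 on the log2 scale. Pde6h, the inhibitory subunit of the cone phosphodiesterase, was the brightest at 14.61 ± 0.149 (SD, n = 5) and ranked 8 of all probes. Opn1mw, the medium-wavelength opsin, read 14.18, 14.52, 14.43, 14.08 and 14.18, so that the opsin of the dorsal mouse retina was bright on every array of this retina. Gnb3, the beta subunit of cone transducin, stood at 14.24 ± 0.25 and Gngt2, its gamma subunit, at 13.47 ± 0.162. The channel subunits were less bright. Cnga3 read 9.14, 8.85, 9.47, 8.67 and 8.73, and Cngb3 read 8.97, 9.86, 8.11, 10.2 and 9.73. Cngb3 had the largest spread of the list, with an SD of 0.838, and its lowest array was replicate 3. Slc24a2, a sodium, calcium and potassium exchanger of cones, was not detected on any array by any of its 3 probes, whose means were 7.14, 7.03 and 7.

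**Figure D1:**
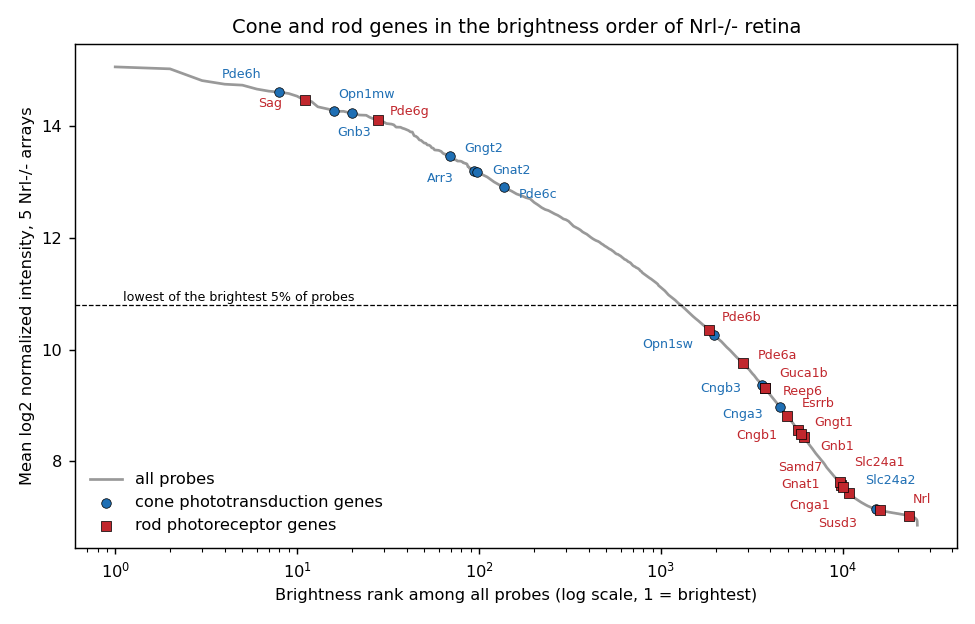
Mean log2 normalized intensity over the 5 Nrl-/- arrays against the brightness rank of all 25697 probes on a log axis, with 11 cone genes (circles) and 16 rod genes (squares) at their brightest probe. Above the dashed line at 10.8 lie 7 cone genes and, of the rod genes, Sag and Pde6g.

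Rod genes were chosen as those that serve rod phototransduction or rod identity. Nr2e3, the nuclear receptor that represses cone genes in rods, had no probe assigned to it here and was not analysed. Of the 16 genes measured, 2 were abundant, 4 lay in the middle range and 6 were dim, so that 12 were detected on all 5 arrays. A further 2 were detected on 4 arrays and 2 on none. The list median was 8.52 on the log2 scale, against 7.35 for all genes with a probe. Sag, rod arrestin, which mouse cones are also known to make, read 14.59, 14.47, 14.57, 14.13 and 14.57, the lowest value being that of replicate 4. Its probe ranked 11 of all probes. Pde6g, the inhibitory subunit of the rod phosphodiesterase, read 14.07, 14.07, 14.25, 13.97 and 14.19 and ranked 28. These values place both rod genes in the range of the brightest cone probes on every array.

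The remaining rod genes formed a gradient down to the background. Pde6b, of the catalytic core of rod PDE6, read 10.32, 10.42, 10.25, 10.28 and 10.52, with an SD of 0.11. Pde6a, its partner subunit, read 9.26, 9.76, 10.37, 9.53 and 9.86. Guca1b, an activator of guanylate cyclase, read 9.04, 9.23, 10.11, 8.56 and 9.6 and had the largest spread of the rod list, with an SD of 0.585. Pde6a and Guca1b shared replicate 3 as their highest array, while Pde6b had its lowest value there. Reep6, a membrane-trafficking protein of rods, stood at 9.31 ± 0.13, and Esrrb, a nuclear receptor that acts in rod survival, at 8.81 ± 0.157. Gngt1, the gamma subunit of rod transducin, was dim at 8.56 ± 0.354, as were Cngb1, the modulatory subunit of the rod channel, at 8.49 ± 0.147, and Gnb1, the beta subunit that many other cells also use, at 8.43 ± 0.21. Gnat1, the alpha subunit of rod transducin, read 7.7, 7.56, 7.52, 7.53 and 7.59. By this probe it was detected on all 5 arrays, on values not far above the median of 7.06 for undetected probes. The other probes of Gnat1, Pde6a and Reep6 were each detected on no array, with means of 6.96, 7.07 and 7.23. Slc24a1, the exchanger of rods, was similar to the brighter Gnat1 probe at 7.62 ± 0.0709. Cnga1, the principal subunit of the rod channel, read 7.4, 7.4, 7.69, 7.27 and 7.39 and was detected on 4 arrays. Samd7, a repressor of non-rod genes, was also detected on 4, at 7.54 ± 0.169. Susd3 joined Nrl among the genes detected on none.

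**Figure D2:**
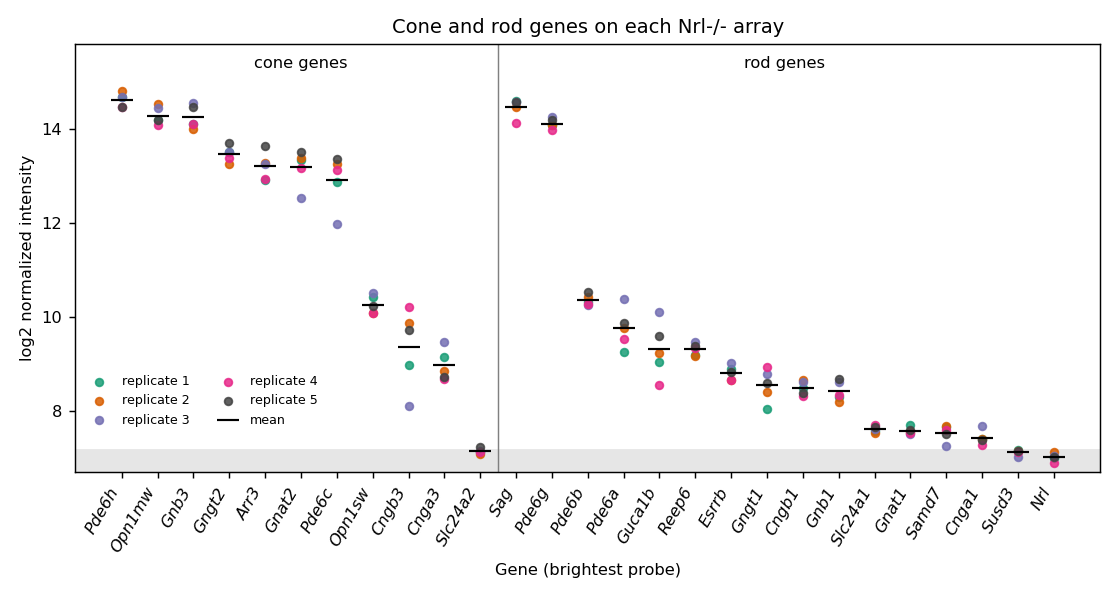
Log2 normalized intensity of 11 cone and 16 rod genes on each of the 5 Nrl-/- arrays (coloured points), with the mean as a bar and genes ordered by mean within each list. The grey band is the range up to 7.18 that holds 95% of the undetected probes, and Slc24a2, Susd3 and Nrl lie in or at its edge.

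Set out by function, the rod and cone counterparts fell into different ranges at most steps. The alpha, beta and gamma subunits of transducin were abundant in the cone version (Gnat2, Gnb3, Gngt2) and dim in the rod version (Gnat1, Gnb1, Gngt1). The catalytic phosphodiesterase subunit was abundant in the cone version and in the middle range for Pde6a and Pde6b. The inhibitory subunits, Pde6h and Pde6g, were both abundant, as were both arrestins. At the channel, Cnga3 and Cngb3 were in the middle range, Cngb1 was dim and Cnga1 was not detected on every array. The listed exchanger pair was the exception in the other direction, since the rod gene Slc24a1 was dim and detected on 5 arrays while Slc24a2 was detected on none. Other exchanger genes were not in the lists, so this pair does not show whether cones lack an exchanger here.

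Components that rods and cones have in common were bright for the most part. Of 12 such genes with a probe, 7 were abundant and 10 were detected on all 5 arrays. Guca1a, which activates guanylate cyclase when calcium falls, read 14.35, 14.23, 14.47, 13.76 and 14.27. Rgs9bp and Gnb5, which hold the transducin GTPase accelerator Rgs9 in place, stood at 12.72 and 12.44, whereas Rgs9 itself had a mean of 7.69 and was detected on some arrays only. Pdc, phosducin, which binds transducin beta and gamma subunits, stood at 12.2 ± 0.361, with its lowest value, 11.58, on replicate 3. Kcnv2, a potassium channel subunit of photoreceptors, stood at 12.11, Unc119, a carrier of lipid-modified transducin, at 12.13, and Aipl1, a chaperone of the phosphodiesterase, at 11.27. Rcvrn, recoverin, was in the middle range at 10.15. Grk1, the opsin kinase, which in mice serves both cell types, was dim at 8.07. The probe of Gucy2e, a guanylate cyclase of photoreceptors, was detected on no array, with a mean of 7.09.

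Transcription factors of the photoreceptor lineage ranged from the brightest probes to the background. Crx, which drives photoreceptor genes of both types, read 14.01, 14.02, 14.01, 13.95 and 13.95, with an SD of 0.036. Otx2, which acts upstream of Crx, stood at 12.41 ± 0.16 and Neurod1, a basic helix-loop-helix factor, at 11.47 ± 0.311. These 3 were the abundant members of 14 measured, of which 9 were detected on all 5 arrays. Rxrg, a retinoid receptor of cones, read 9.07, 9.02, 9.47, 9.06 and 9.76, and Rax, a homeodomain factor of the retinal lineage, stood at 8.9. Rorb, a nuclear receptor required upstream of Nrl, was dim at 8.53, and Sall3, a zinc-finger factor with a role in cone gene expression, at 7.79. Prdm1, which favours photoreceptor over bipolar fate, was detected on some arrays. The single probe of Thrb, the thyroid hormone receptor that patterns cone opsins, lay at the background on every array, at 6.99 ± 0.0212. Mef2d was detected on none either.

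Outer segment and cilium genes were mixed. Of 21 measured, 5 were abundant, 13 were detected on all 5 arrays, 5 on 1 to 4 and 3 on none. Cdhr1, a cadherin at the base of the outer segment, read 14.02, 14.09, 14.09, 14.11 and 14.07, with an SD of 0.0343. Tulp1, a trafficking protein, stood at 13.35, Prph2, peripherin, at 13.19 and its partner Rom1 at 12. Bbs4, a subunit of the ciliary trafficking complex BBSome, read 11.28, 11.22, 10.32, 11.27 and 11.15 and was lowest on replicate 3. Impg2, a proteoglycan of the matrix around photoreceptors, was also lowest there, with 8.67 on replicate 3 and 10.02 to 10.43 on the others. Rp1, a microtubule protein of the axoneme, was detected on some arrays, with 7.23 on replicates 1 and 3 and 8.58 on replicate 4. Impg1 and Cep290 were detected on none.

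Genes of the retinoid cycle, which regenerates the chromophore of the opsins, belong to photoreceptors, Mueller glia and pigment epithelium. Of 15 measured, 3 were abundant and 10 were detected on all 5 arrays. Rbp3, the retinoid carrier secreted by photoreceptors, stood at 13.57 ± 0.132, Rdh12, a retinol dehydrogenase of photoreceptors, at 11.65, and Rlbp1, the retinaldehyde-binding protein of Mueller glia and pigment epithelium, at 11.28 ± 0.118. Abca4, the retinoid flippase of outer segments, ranged from 10.18 to 11.23. Rpe65, the isomerase of the pigment epithelium, was dim at 7.92. Lrat, which supplies its substrate, was not detected on any array, and neither were Rdh8 and Dhrs3.

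Of 20 measured genes on the photoreceptor synapse list, 7 were abundant and 16 were detected on all 5 arrays. In whole-retina RNA their signal cannot be assigned to photoreceptors alone. Syp, synaptophysin of synaptic vesicles, stood at 13.93 ± 0.242, Vamp2, a vesicle fusion protein, at 12.86 and Sv2b, another vesicle protein, at 12.7. Slc17a7, the glutamate transporter that fills photoreceptor and bipolar vesicles, read 11.87, 11.84, 12.52, 11.46 and 11.72, and Cplx4, a complexin of ribbon synapses, stood at 12.47. Cacna1f, the calcium channel subunit of the photoreceptor terminal, was in the middle range at 9.36 ± 0.173. Unc13b, a vesicle priming factor, had the widest spread of the list, with 9.98 on replicate 3, 11.08 on replicate 1 and 12.06 to 12.25 on the other arrays. Snap25, a fusion protein that retinal neurons are known to make in quantity, and Bsn were detected on no array, at 6.96 and 7.12.

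Some markers of each class of inner retinal neuron were detected on every array. Of 16 bipolar markers measured, 14 were detected on all 5 arrays and 4 were abundant. Gng13, a G protein subunit of ON bipolar cells, read 13.01, 12.96, 13.18, 13.09 and 13.14. Grm6, the glutamate receptor of ON bipolar cells, stood at 12.04 ± 0.201, and Pcp2, which modulates G proteins in them, at 11.96 ± 0.205. Trpm1, the transduction channel of the same cells, was just below the abundant range at 10.68, while Grik1, a kainate receptor of OFF bipolar cells, stood at 10.46. The other probes of Grik1 were detected on no array, at 7.1 and 7.02. Prkca, the marker of rod bipolar cells, was dim at 7.73 ± 0.0949, and Bhlhe23, a factor of the same cells, also dim at 7.65. Nyx was detected on none.

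Of 21 amacrine markers, 6 were abundant and 16 were detected on all 5 arrays. Calb2, calretinin, stood at 13.19 ± 0.147. Slc6a9, the glycine transporter of glycinergic amacrine cells, stood at 12.02, and Gjd2, the connexin of AII amacrine cells, at 11.81. Slc32a1, the vesicular transporter of inhibitory transmitters, stood at 11.79 and Gad1, which makes GABA, at 11.4. The probe of Gad2, the other GABA-synthesizing enzyme, was detected on none, at 6.97, and so was that of Th, which marks dopaminergic cells, at 7.19. Chat, which marks starburst cells, was dim at 8.36 ± 0.338. Horizontal cell markers had the lowest list median of the neurons, 7.63, near the 7.35 of all genes. None of their 8 measured markers was abundant and 4 (50%) were detected on all 5 arrays, near the 43.7% of all genes. The brightest were Slc4a3, an anion exchanger, at 9.98 and Prox1, a homeodomain factor that other retinal cells also make, at 9.66. The probes of Calb1, calbindin, Onecut1 and Gja10 were detected on none.

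Of 17 ganglion cell markers measured, 8 were in the middle range, 12 were detected on all 5 arrays and 2 were abundant, Thy1 at 11.9 ± 0.358 and Slc17a6, the glutamate transporter of ganglion cells, at 10.9 ± 0.315. Nrn1, neuritin, stood at 10.66 and Pou4f1, a POU-domain factor of ganglion cells, at 8.88. Opn4, melanopsin of the light-sensitive ganglion cells, was detected on 1 array. The probe of Nefl, the light neurofilament, was at 7 on average and detected on none, beside its partners Nefm at 9.14 and Nefh at 8.95.

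**Figure D3:**
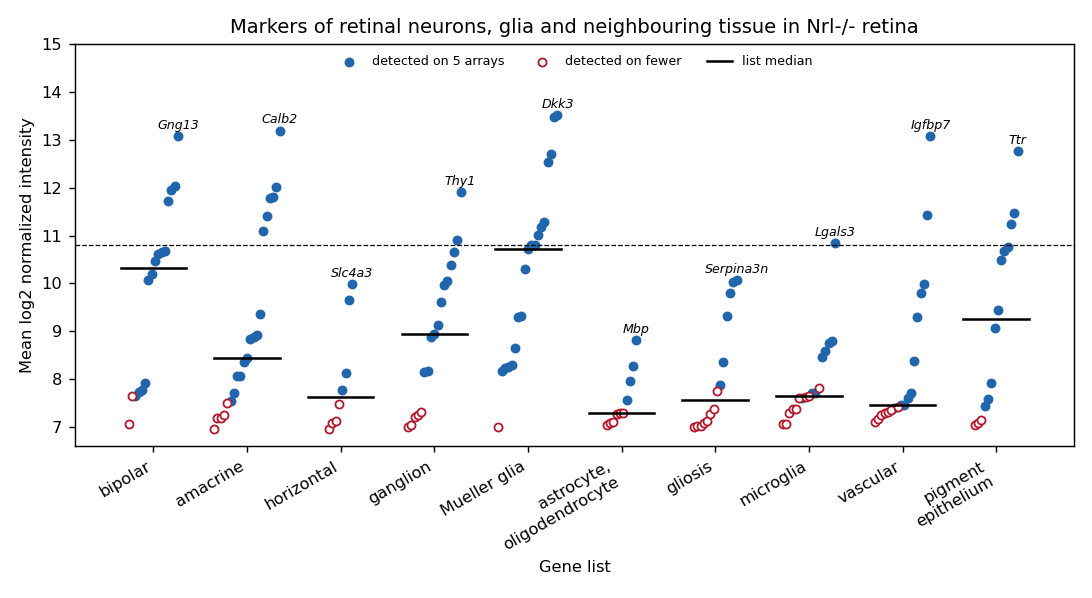
Mean log2 normalized intensity over the 5 Nrl-/- arrays of each measured marker of bipolar, amacrine, horizontal, ganglion, Mueller glia, astrocyte and oligodendrocyte, gliosis, microglia, vascular and pigment epithelium lists, filled where detected on all 5 arrays and open where detected on fewer, with the list median as a bar and the brightest gene named. The dashed line at 10.8 is the lower edge of the abundant range, and the medians of the Mueller glia (10.71) and bipolar (10.33) lists are the highest of the 10 shown, which leave out the lens list (10.36).

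Mueller glia, the radial glia that span the retina, had the highest list median of the cells other than photoreceptors, 10.71. Of 19 markers, 18 were detected on all 5 arrays and 8 were abundant. Dkk3 read 13.65, 13.62, 13.41, 13.53 and 13.32, and Clu, clusterin, 13.6, 13.32, 13.07, 13.59 and 13.83. Slc1a3, the glutamate transporter of these cells, stood at 12.54 ± 0.11, and Dbi, a binder of acyl-CoA, at 12.71. Glul, glutamine synthetase, read 10.87, 11.12, 10, 10.82 and 11.26, with its low value on replicate 3. The transcription factors Sox9 and Sox2 were dim, at 8.18 and 8.66. Gpr37 was detected on none. Of 10 astrocyte and oligodendrocyte markers, none was abundant and 4 were detected on all 5 arrays, a share (40%) near that of all genes, with a median of 7.3 beside 7.35. The brightest was Mbp, myelin basic protein, at 8.82 ± 0.153. Gfap, the intermediate filament that Mueller glia add when the retina is damaged, read 7.52, 7.17, 7.29, 7.06 and 7.37 and was detected on 2 arrays.

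Several genes of retinal injury and gliosis differed widely between the mice. Serpina3n, a secreted protease inhibitor, read 11.8, 8.48, 8.78, 11.22 and 10.09, and Lcn2, lipocalin, read 9.62, 7.58, 7.92, 8.89 and 7.72. For both, replicates 1 and 4 were the highest. Stat3, a transcription factor of the gliotic response, read 10.86 on replicate 1 and 9.36 to 10.04 on the others. Replicate 1 was the highest array for 8 of the 10 gliosis genes detected at all and replicate 4 for the other 2. None of the 14 gliosis genes measured was abundant, and 6 (42.9%) were detected on all 5 arrays, near the 43.7% of all genes. Fgf2, Lif, Bcl3 and Cntf were detected on none.

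Microglia and macrophage markers were mostly highest on replicate 1 as well. Of 17 measured, 8 (47.1%) were detected on all 5 arrays and 1 (5.88%) was abundant, near the 43.7% and 6.61% of all genes. The abundant gene was Lgals3, galectin-3, which read 11.09, 10.49, 10.44, 11.47 and 10.69. Without replicate 1, or without replicate 4, the count of abundant genes was 0. Lyz2, lysozyme of macrophages, read 10.49, 7.73, 8.14, 9.45 and 8.17, and Cd74, the invariant chain of antigen presentation, read 9.25, 7.07, 7.09, 8.12 and 7.5. The complement genes C1qb and C1qc stood at 8.76 and 8.47 and were also highest on replicate 1, with replicate 5 next at 9.05 and 8.6. Replicate 1 was the highest array for 11 of the 15 markers detected at all, replicate 4 for 3 and replicate 5 for 1. Replicate 2 was the lowest for 9. Over all probes detected on all 5 arrays, replicate 1 was the highest for 18.1% and replicate 2 the lowest for 12.5%. Defining microglial genes differed in detection. P2ry12 at 7.72, C1qa at 7.71 and Aif1 at 7.61 were detected on all 5 arrays but dim, Trem2 at 7.66 and Fcrls at 7.63 on 4, Cx3cr1 on 2, Tmem119 on 1, and Itgam and Spi1 on none.

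Some genes listed as markers of neighbouring tissue were also detected, and the source of their RNA was not tested. Of 14 markers of the pigment epithelium, 11 were detected on all 5 arrays and 3 were abundant, a count that was 5 without replicate 5. Ttr, transthyretin, stood at 12.76 ± 0.333. The pigment genes Dct and Tyrp1, enzymes of melanin synthesis, read 12.42, 10.93, 10.91, 11.93 and 11.18, and 12.07, 10.91, 10.35, 12.02 and 10.84. Replicates 1 and 4 were again the highest for both. Rgr and Rdh5, of the visual cycle in the pigment epithelium, did not share that order and were highest on replicate 3, at 11.3 and 11.22. Tyr, Mitf and Lrat were detected on none. Haemoglobin, from erythrocytes, was highest on replicate 3 and lowest on replicate 5, where Hba-a1 read 13.36 and 11.57. Its probe may also take up RNA of the near-identical copy of that gene.

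Of 18 vascular genes, 11 were detected on all 5 arrays, 6 of them dim, 3 in the middle range and 2 abundant. The abundant genes were Igfbp7 and Acta2, smooth-muscle actin, and Flt1, a receptor of endothelial cells, stood at 9.98. The other probes of Igfbp7 and Flt1 were detected on no array, at 6.97 and 7.08, and those of Acta2 stood at 8.78, 8.41 and 7.77. Cdh5 and Cspg4 were detected on none. The vascular genes with the widest spread were the basement membrane collagens. Col4a1 read 8.57, 10.63, 8.46, 11.18 and 10.22, and Col4a2 read 7.99, 9.81, 8.38, 10.56 and 9.76. Igfbp7, an insulin-like growth factor binding protein, read 12.62, 13.41, 11.84, 14.02 and 13.47. All 3 were low on replicates 1 and 3 and highest on replicate 4. Of the 19 lens genes detected at all, 16 were also highest on replicate 4 and 3 on replicate 5.

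Lens genes were the most variable on these arrays. Crybb2, a beta-crystallin, read 7.28, 14.4, 9.93, 15.12 and 14.91. It was detected on all 5 arrays, close to the background on replicate 1 and with the highest value of any probe on replicate 4. Cryaa, an alpha-crystallin, read 6.9, 12.83, 7.74, 13.55 and 13.57, and Mip, the water channel of lens fibres, 7.09, 12.09, 7.36, 13.41 and 12.36. The median of the lens list was 7.21, 11.33, 8.08, 13.35 and 12.36 in replicates 1 to 5, and the list took between 0.0272 and 1.79% of all intensity on an array. All 10 genes with the largest SD among those above 8.82 were lens genes, with SDs from 2.7 to 3.53. Of 22 measured, 8 were abundant and 8 detected on all 5 arrays. The count of abundant genes was 5 without replicate 4 and 5 without replicate 5, and 14 were detected on all remaining arrays without replicate 1. Cryab, which retina and other tissues are also known to make, read 8.77 on replicate 1 and 13.11 on replicate 4. The part that lens RNA plays in the other values was not tested.

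**Figure D4:**
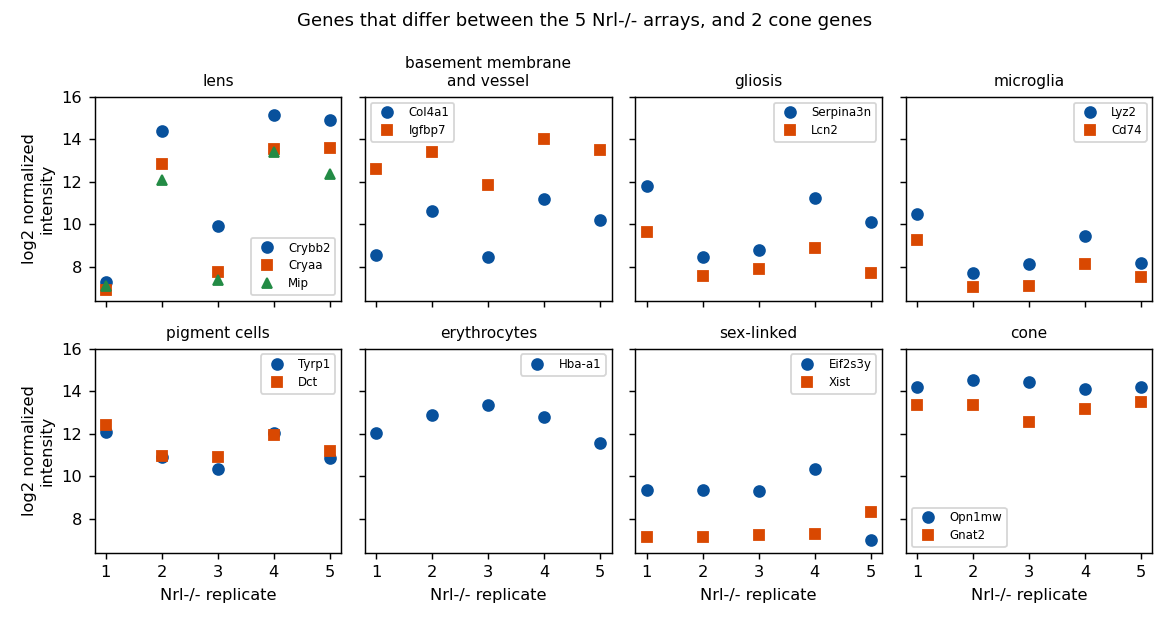
Log2 normalized intensity on Nrl-/- replicates 1 to 5 of genes of lens, basement membrane and vessel, gliosis, microglia, pigment cells, erythrocytes and sex chromosomes, beside 2 cone genes. The lens genes and Col4a1 are lowest on replicates 1 and 3, and Opn1mw stays between 14.08 and 14.52. Serpina3n, Lcn2, Lyz2, Cd74, Tyrp1 and Dct are highest on replicates 1 and 4, an order that other members of their lists do not all share.

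Photoreceptor genes varied far less than lens genes. Among the 9850 probes detected on all 5 arrays the median SD was 0.189 on the log2 scale, and 27 (0.274%) had an SD above 1. The cone genes detected on all 5 arrays had a median SD of 0.276 and the rod genes one of 0.152. Replicate 3 stood apart in the number of probes detected, 10302, against 11926 to 12510 on the other 4 arrays. It was the highest array for 37.6% and the lowest for 21.1% of the probes detected on all 5. Gnat2, Pde6c, Cngb3, Unc13b, Impg2 and Glul, all described above, had their lowest values there, but other members of their lists did not. Of the 10 cone genes detected at all, 3 were lowest and 3 highest on replicate 3. Of 18 synapse genes, 5 were lowest and 8 highest on it. The counts were 8 and 3 for 18 outer segment and cilium genes, and 6 and 2 for 18 Mueller glia markers. The arrays correlated with each other at r between 0.9613 and 0.9891 across probes. The sex-linked genes set replicate 5 apart: Eif2s3y, on the Y chromosome, read 9.36, 9.34, 9.32, 10.32 and 7.02, while Xist, made from the inactive X, read 7.16, 7.14, 7.23, 7.27 and 8.3. None of the 4 sex-linked genes was detected on all arrays, and 2 were so without replicate 5.

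The brightest 20 genes placed photoreceptor products among those of energy supply and protein synthesis. Ckb, brain-type creatine kinase, led at 15.03 ± 0.1, followed by Atp5b, the beta subunit of ATP synthase, at 14.82, a ubiquitin probe assigned to Ubb-ps at 14.76, Gapdh at 14.67 and Fth1, the ferritin heavy chain, at 14.63. Near-identical copies of ubiquitin and ribosomal protein genes may share such probes. Next came Pde6h, Rpl23 at 14.59, Tuba1b at 14.54, Sag, and Rplp1 at 14.44. Prnp, the prion protein, at 14.35, Rpl41 at 14.33, Opn1mw, the glycolytic enzyme Tpi1 at 14.27, the chaperone Hspa8 at 14.25 and Gnb3 followed. Guca1a at 14.22, Mgarp, a mitochondrial protein, and Tubb5, both at 14.2, and Mif at 14.17 closed the group. Of these 20 genes, 5 belonged to the photoreceptor lists, and of the 100 brightest, 15 did. The brightest probe of all, at 15.07, had no gene assigned.

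Genes of energy metabolism were bright as a group. Of 22 genes of glucose uptake, glycolysis and lactate handling, 13 were abundant and 20 were detected on all 5 arrays. Among them Eno2, neuronal enolase, stood at 13.55, Pkm, pyruvate kinase, at 13.57 and Hk2, the hexokinase of photoreceptors, at 13.35 ± 0.168. Replicate 3 was the highest array for 15 of the 20, and for 37.6% of all probes detected on all 5 arrays. The lactate transporters Slc16a1 and Slc16a3 were detected on no array, while Bsg, which escorts such transporters to the membrane, ranged from 9.83 to 11.21. Of 91 genes of oxidative phosphorylation and its assembly, 55 were abundant and 82 were detected on all 5 arrays, with a median of 11.24. Of 60 cytosolic ribosomal protein genes, 41 were abundant and 54 were detected on all 5 arrays, with a median of 11.97. Of 11 housekeeping genes, 6 were abundant, led by Tubb5, Actb at 13.48 and Tuba1a at 13.23, while Rplp0 was dim at 8.13 and the probe of Eef1a1, an abundant elongation factor in most cells, was detected on none.

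**Figure D5:**
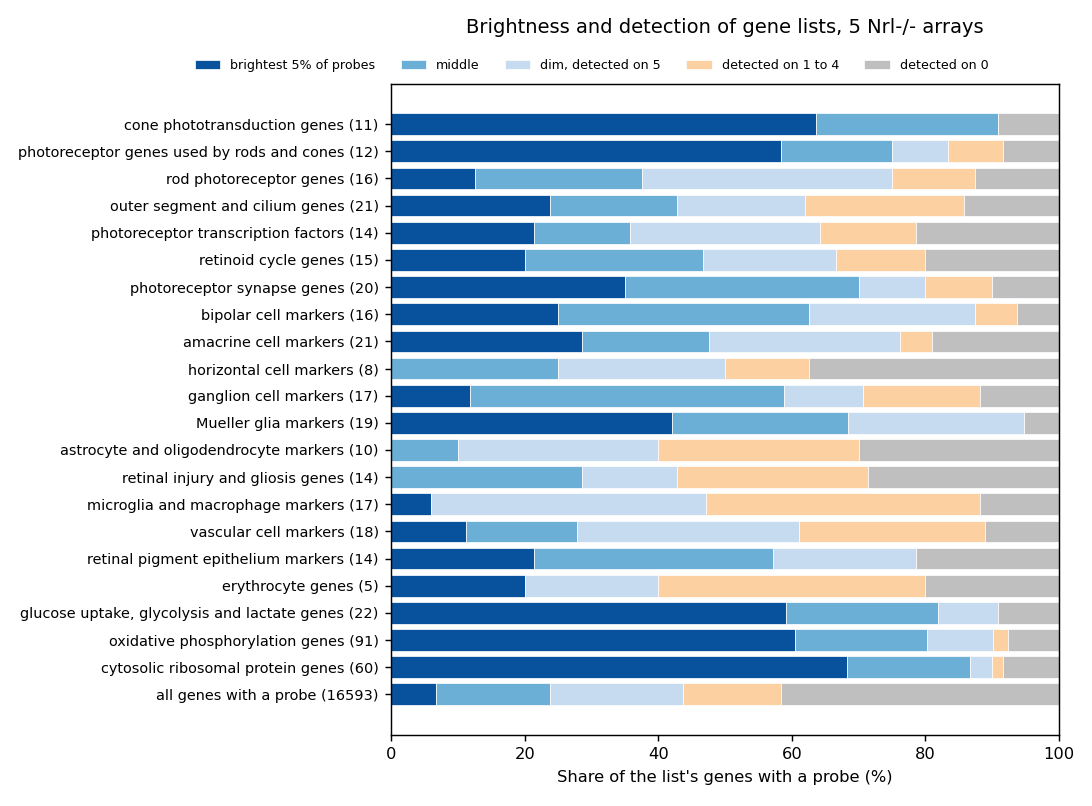
Share of each list's measured genes (number in brackets) in 5 classes over the 5 Nrl-/- arrays: among the brightest 5% of probes, middle, dim but detected on all 5, detected on 1 to 4, and detected on none. Cone genes (63.6% abundant) lie near glycolysis genes (59.1%), rod genes have 12.5% abundant, and the bottom bar gives all 16593 genes (6.61%).

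A probe without signal did not always mean a gene without transcript. Of 394 abundant genes with several probes, 82 had another probe that was detected on no array. Tubb5 stood at 14.2 by its brightest probe and at 6.98 by the other, and Ddx17 at 13.75 with 2 of its 4 probes undetected. Itm2b and Rpl37 likewise had 2 undetected probes each, beside brightest probes at 13.4 and 13.33. Genes with 1 undetected probe, such as Thrb, Gucy2e and Snap25 above, are therefore reported as undetected by that probe.

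Detection on every array of this retina was shared with the other genotypes for nearly all such probes. Of the 9850 probes detected on all 5 arrays, 9552 (97%) were also detected on all 10 arrays of Cnga3-/-/Nrl-/- and Cngb3-/-/Nrl-/- retinas. Absence was shared less often: of the 11863 probes detected on none here, 10053 (84.7%) were detected on none of those 10 arrays. Gnat1, Sag, Pde6b, Pde6g and Gngt1 were detected on all 10 of those arrays, Cnga1 on 6 and Nrl on none. A probe of Nme7 was the only probe detected on all 5 arrays here and on none of the 10, and probes of Cox6a2, Elf2, Pcdh9 and Ireb2 were detected on none here and on all 10. The means of these 5 probes here lay between 7.15 and 7.57, close to the background, and no test of their difference was made.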

How the data were processed

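Total RNA of 15 retina samples was hybridised to an Illumina mouse beadchip, and the submitters' processing notes name GenomeStudio, without a version. Per the file headers, the deposited non-normalized table holds a linear intensity and a detection p-value for each of 25697 probes and each array, the latter computed by the authors' software against negative controls, with 798 steps between 0 and 1. The values of the authors' series matrix are log2 values, which equal the log2 of the quantile-normalized intensity without background subtraction to within 5e-07. These were averaged over the 5 Nrl-/- arrays, and probes were ranked by that mean. Quantile normalization gives every array the same distribution, so a difference in total signal cannot be seen. Slide, scan and batch are not stated in the labels or headers.

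Gene symbols came from the platform annotation, with 1 symbol for 23978 probes and none for 1719. Of 512 distinct members of 24 lists, 466 had a probe. Groups and replicate numbers came from the titles. No contrast was made and no p-value was computed, so spread is given as the SD over 5 mice, whose number limits the precision. Median intensity per array ran from 136.8 to 164.7. Calculations used Python 3.11.15 with pandas 2.3.3 and numpy 2.4.6, and limma 3.58.1 in R 4.3.3 for neqc, an alternative with background correction and an offset of 16. The steps were tested on simulated data.

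Named genes are all cone and rod genes, the 20 brightest genes, and genes drawn from the 3 brightest and 2 lowest members of each other list, the 10 most variable genes, and 4 genes whose probes disagree. Other list members were named after their values were seen. Members and lists were chosen with earlier results of these data known. Ribosomal and oxidative phosphorylation genes were taken by symbol prefix, and S6 kinases and 2 other genes that only share the prefix of ribosomal proteins were left out after their values were seen. Alternatives were other detection thresholds, neqc, median-scaled intensity, the brightest 10% of probes, the dimmest probe or the mean over probes, and leaving out each array.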

Additional observations from a re-analysis of the deposited data

Results flagged for a closer look

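In groups of 5 arrays, a value far from the other 4 is found by chance in about 1 of 20 groups. Here 9 of 152 named genes had such a value (5.92%), which is close to that rate. Sag was low on replicate 4, at 14.13 against 14.47 to 14.59 on the other arrays, and Ckb was low on the same array, at 14.86 against 15.06 to 15.12. Rpl23 was low on replicate 3, at 14.23, and so was the bipolar marker Pcp4, which fell to the background there, at 7.19 against 7.67 to 7.85. Prox1 and Sox9 were low on replicate 5, at 9.21 and 7.92. On that array Xist was high, at 8.3, and the undetected Rpl39l stood at 7.18. Rpl37 was high on replicate 1, at 13.5 against 13.27 to 13.32. Replicate 3 had the fewest detected probes, 10302 against 11926 to 12510. The median of the bipolar markers was highest on replicate 5, at 10.62 against 10.37 to 10.44. The causes were not tested.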

How the results depend on the processing

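No paired analysis was possible because the values come from 1 group and no test. The count of probes detected on all arrays was 11188 at a detection p under 0.05 and 8642 under 0.002, and 9905 to 10854 when an array was left out. Probes detected on none numbered 9148 and 13940 at those thresholds and 11901 to 12331 without an array. Of the cone genes, 10 were detected and 7 abundant under every alternative except the brightest 10% of probes, which held 8. Of the rod genes, 9 to 13 were detected and 2 were abundant, or 3 in the brightest 10%. The median of the rod genes was 7.96 with neqc, which subtracts background and so lowers dim probes, and 8.48 to 8.59 without an array, while that of the cone genes was 13.16 and 13.09 to 13.19. Neqc and median scaling kept 99.8% and 98.4% of the probes of the brightest 5%. Of the 24 lists, the number of abundant genes moved by over 1.5 times in 7 with the brightest 10%, in 3 with the dimmest probe, in 1 with median scaling and in 3 without an array. The number detected moved as much in 4 lists with the dimmest probe, 3 at a p under 0.002 and 2 without an array. List medians moved by more than their SD over arrays in 15 lists with neqc and 10 with the mean over probes, as did the means of 62 of 152 named genes with neqc. No list median did so without an array. For the gene means, leaving out an array could not show a move, because 1 of 5 arrays always shifts a mean by less than its SD.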

Other observations

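Beyond the lists, several bright genes carry functions tied to the retina, and they were chosen after their values were seen. Slc6a6, the taurine transporter, read 14.06, 13.49, 13.65, 13.65 and 13.65 on the log2 scale in replicates 1 to 5, and Guk1, guanylate kinase, which serves the recycling of guanine nucleotides, read 13.49, 13.68, 13.87, 13.74 and 13.71. Mfge8, a bridging protein in the uptake of outer segments by the pigment epithelium, stood at 13.94 ± 0.277 (SD, n = 5), and Plekhb1, a membrane protein of photoreceptors, at 13.99 ± 0.104. Mt1, metallothionein, read 14.11 on replicate 1 and 13.15 on replicate 2. Among the variable genes outside the lens list, Nupr1, a stress-response factor, read 9.8, 11.11, 8.72, 12.16 and 11.59, low on the arrays on which lens genes were low. Lyz1, a lysozyme with a near-identical relative in Lyz2, read 11.4, 8.36, 8.74, 10.06 and 8.87, highest on replicates 1 and 4. Ttc3 read 10.43 on replicate 3 and 12.76 to 13.15 on the other arrays.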
